A study of Homo sapiens with 6 samples.

Results

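HAP1 cells and HAP1 cells without the chromatin remodeller HELLS were compared for the expression of 254 zinc-finger genes that lie outside chromosome 19. The genes were taken from a table of 60483 genes by symbol (ZNF, a number and at most 1 further letter), by a position on any chromosome other than 19 in the GENCODE annotation of GRCh38, and by a sum of at least 30 counts over the 6 libraries. Of 294 such symbols off chromosome 19, 26 had 0 counts in every library and 14 had 1 to 29 counts, which left 254 genes on 20 chromosomes, 242 of them protein coding and 12 annotated as pseudogenes. Just under the limit lay ZNF521 with 12 counts and ZNF29P with 15, and just above it ZNF602P with 31 and ZNF593 with 32. Another 252 zinc-finger genes with as many counts lie on chromosome 19 and serve here only as a comparison.

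Both groups were HAP1, a near-haploid human line that was derived from a chronic myelogenous leukemia and now grows attached. The first group, HAP1, was the parental line HAP1 (C631) with the genotype WT, and the second was HAP1 HELLS KO, a single purchased clone that carries an inserted base in HELLS. Each group had 3 libraries of total RNA from cells under normal growth without any agent, and replicate 3 of both groups carried a batch label. Because all knockout libraries came from 1 clone, the effects of the genotype and of that clone cannot be told apart. The replicates were described as biological, without a statement of whether they were separate cultures, so the p-values measure the spread between these libraries only. In bulk RNA, a higher level in every cell and a high level in a part of the cells cannot be told apart.

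Most genes with these symbols encode proteins with an array of C2H2 fingers, each of which folds around a zinc ion. The array as a whole reads a stretch of DNA. The symbol alone does not ensure an array, and by the pattern used here ZNF330 and ZNF185, for example, held 0 such fingers. Many of them also carry a KRAB domain, which binds TRIM28 (KAP1) and through it the histone methyltransferase SETDB1, and these proteins are best known for silencing transposable elements. The genes arose by repeated tandem duplication, so that most human members sit in clusters, the largest of them on chromosome 19 and smaller ones on many other chromosomes. HELLS (LSH) is a remodeller of the SNF2 family that is known from mouse embryos to be needed for normal DNA methylation of repeats. These libraries hold no measurement of DNA methylation.

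The libraries held between 13641237 and 24400187 counts, so that 3 counts, the upper limit behind an observed 0 where only counting error is considered, were worth between 0.123 and 0.218 CPM (counts scaled to TMM library size). The 254 genes took between 1.19% and 1.40% of the counts in HAP1 and between 1.20% and 1.42% in HELLS KO. HELLS itself was at 102, 108 and 153 CPM in HAP1 and at 96.9, 96.3 and 115 CPM in HELLS KO (log2 fold change -0.24, edgeR adjusted p = 1.00). It was lower in HELLS KO within each replicate number, the groups overlapped, and with the replicate block it did not pass either (-0.22, adjusted p = 0.373). Of 12 blood cell markers, checked against the labelled leukemia origin, SPI1 had 0 counts everywhere, PTPRC and MPO had at most 2 in any library, and 4 in all had at most 3 in every library. KIT was expressed in HAP1, at 22.4, 19.6 and 38.9 CPM, and CD33 and CD14 had 8 to 24 counts per HAP1 library. The summed level of those 12 was 22.6 to 41.6 CPM in HAP1 and 3.99 to 7.97 CPM in HELLS KO, and KIT, which made up most of it, fell by 2.90 on the log2 scale (adjusted p = 0.0153). Among 8 epithelial markers, KRT8 and EPCAM fell and the sum went from 342 to 355 CPM in HAP1 to 233 to 265 CPM in HELLS KO. GATA3 of the same list was at 49.3, 48.4 and 33 CPM in HAP1 and 22.2, 23 and 18.2 in HELLS KO, without overlap, and passed as lower with the replicate block (log2 fold change -1.03, adjusted p = 0.00135) but not without it (-1.04, adjusted p = 0.0516). None of the 5 tested fibroblast and chondrocyte markers was called by edgeR (0 at an unadjusted p under 0.05 and 0 by DESeq2), with DCN and LUM at 0 in every library and sums of 311 to 498 and 332 to 449 CPM. The part of these marker changes in the zinc-finger results was not tested.

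Expression of most of these genes was alike in both genotypes, and a small number went from no or almost no reads to clear expression in HELLS KO. Of the 254 genes, 247 passed the filter on low counts, and 11 of them (4.45%) were called higher in HELLS KO, where 1.50% of all 17925 tested genes were, by edgeR's quasi-likelihood test with cut-offs of 0.05 on the adjusted p and 1 on the log2 fold change in either direction. Called lower were 2 (0.810%), against 0.720% of all tested genes, a share near the background. In either direction 13 (5.26%) were called, against 2.22%. The 11 higher genes were ZNF300, ZNF883, ZNF239, ZNF502, ZNF501, ZNF879, ZNF204P, ZNF141, ZNF354C, ZNF334 and ZNF732, and the 2 lower genes were ZNF385D and ZNF804A. In 7 of the 11, every HAP1 library had at most 3 counts, and in 5 of these all HAP1 libraries had 0. Such genes pass the filter only through HELLS KO and had to differ. The others of the 11, ZNF300, ZNF334, ZNF141 and ZNF732, were low in HAP1 and also pass the filter through HELLS KO. The count of 11 and its share of 4.45% are therefore given as a description of the list.

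The remaining genes moved little. The median log2 fold change was 0.03 over the 247 tested genes and 0.01 over all tested genes, and the quartiles were -0.07 and 0.13 for the former and -0.09 and 0.11 for the latter. An absolute log2 fold change under 0.5 was found for 219 of the 247 (88.7%), with 149 values above 0 and 98 below. In 33 of them (13.4%) the libraries of the genotypes did not overlap, against 10.1% of all tested genes, and 22 had an unadjusted p under 0.05, against 6.59% of all. With replicate numbers as a block, 13 of the 247 were called higher and 4 lower, and these included all 13 genes named above. In that fit 2.03% of all tested genes were called higher and 1.49% lower. The added genes were ZNF454, ZNF704, ZNF469 and ZNF385C, which are described with their values further on.

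**Figure D1:**
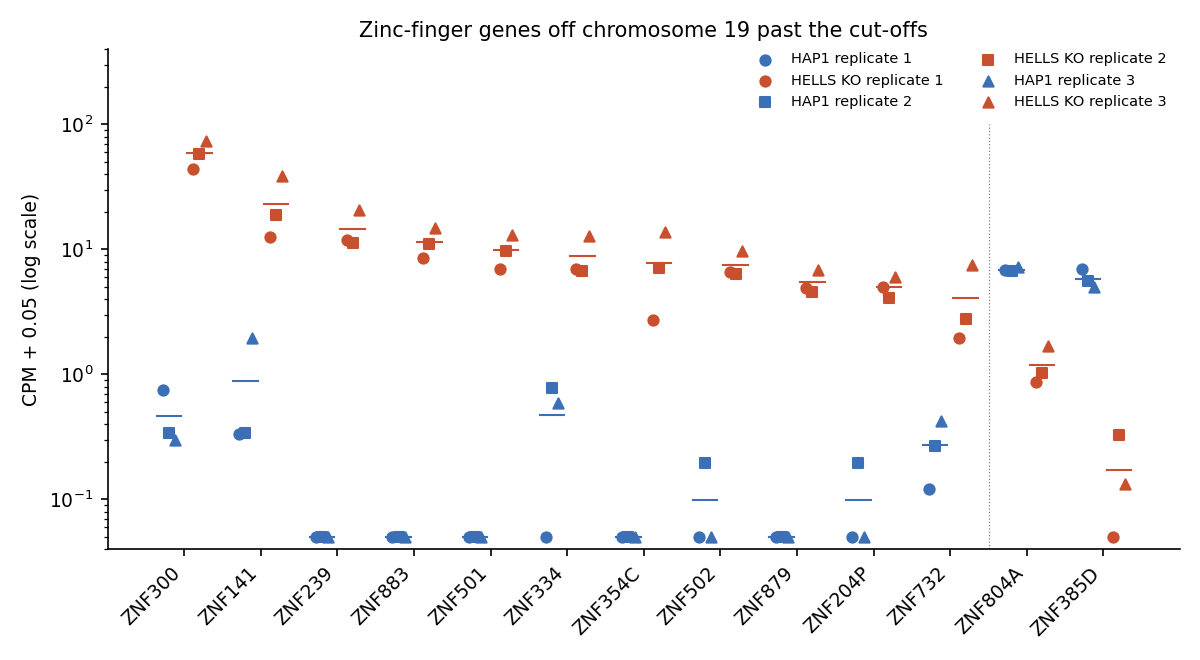
Each point is 1 library, with the level of the 13 called genes in CPM plus 0.05 on a log axis, HAP1 in blue and HELLS KO in red, and the short bars are means of 3 libraries. The 11 genes left of the dotted line are higher and the 2 right of it lower in HELLS KO, and ZNF239, ZNF883, ZNF501, ZNF354C and ZNF879 sit at 0 in all HAP1 libraries.

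ZNF300, a KRAB zinc-finger gene on chromosome 5 (ENSG00000145908.11, chr5:150894392-150904983, - strand), had the smallest adjusted p of all these genes. It was at 0.703, 0.291 and 0.25 CPM in the HAP1 libraries and at 44.3, 58.5 and 73.1 CPM in the HELLS KO libraries. These are 10, 4 and 6 counts against 645, 835 and 1781, so the groups lay far apart and the gene was low but not absent in HAP1. The log2 fold change was 7.19 (SE 0.40, edgeR adjusted p = 0.000243). Per length, it rose from 0.0929 ± 0.0566 to 13.1 ± 3.25 FPKM (SD, n = 3), which moved it from rank 243 to rank 63 of 254. The next tested gene on its 3′ side, SMIM3, had a log2 fold change of 0.03, while the pseudogene ZNF300P1, 25.8 kb away on the other side, went from 0 counts in all HAP1 libraries to 71, 85 and 210 in HELLS KO (adjusted p = 0.00415). ZNF300 shared 4.96% of its 31-base stretches with other genes, 4.42% with ZNF300P1, and 1 annotated gene, IRGM, overlaps it on the other strand.

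ZNF883 on chromosome 9 (ENSG00000228623.3, chr9:112988129-113012192, - strand) and ZNF239 on chromosome 10 (ENSG00000196793.12, chr10:43556344-43574618, - strand) code for finger arrays without a recognised KRAB domain. ZNF883 had 0 counts in all HAP1 libraries and 8.52, 11.1 and 14.7 CPM in HELLS KO, at least 52.4-fold higher when the mean is set against the largest HAP1 value of 3 counts per library (adjusted p = 0.00244). ZNF239 likewise had 0 counts in HAP1 and 12, 11.3 and 20.7 CPM in HELLS KO, at least 67.1-fold higher (adjusted p = 0.00278). Both genes were therefore undetected in every HAP1 library and seen in every HELLS KO library, with replicate 3 the highest. These bounds, and those of the same kind below, are for the HELLS KO mean and leave out the spread between its libraries. ZFP37, a zinc-finger gene with another symbol that lies 26.2 kb from ZNF883, rose from 0, 0 and 6 counts to 93, 146 and 367 (adjusted p = 0.00694). The neighbours of ZNF239, ZNF487 and ZNF485, had log2 fold changes of -0.02 and 0.13, and neither was called.

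Promoter sequence is shown for these single loci, which went from few or no reads to clear expression, with the CG pairs at which DNA can be methylated. Each line gives the bases from 250 to 51 before the RefSeq start (GRCh38.p14) in the direction of transcription, with those pairs in capitals. The stretches lie at chr5:150905031-150905230 for ZNF300, chr10:43574667-43574866 for ZNF239 and chr9:113012243-113012442 for ZNF883, all on the - strand.
ZNF300: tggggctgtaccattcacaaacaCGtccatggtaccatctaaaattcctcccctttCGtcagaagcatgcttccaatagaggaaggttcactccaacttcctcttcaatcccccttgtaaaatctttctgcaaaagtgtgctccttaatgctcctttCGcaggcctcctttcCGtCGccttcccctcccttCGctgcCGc
ZNF239: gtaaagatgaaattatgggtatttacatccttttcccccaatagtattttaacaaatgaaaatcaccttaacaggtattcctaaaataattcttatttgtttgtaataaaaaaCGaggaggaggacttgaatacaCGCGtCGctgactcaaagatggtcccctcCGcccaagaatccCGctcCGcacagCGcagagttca
ZNF883: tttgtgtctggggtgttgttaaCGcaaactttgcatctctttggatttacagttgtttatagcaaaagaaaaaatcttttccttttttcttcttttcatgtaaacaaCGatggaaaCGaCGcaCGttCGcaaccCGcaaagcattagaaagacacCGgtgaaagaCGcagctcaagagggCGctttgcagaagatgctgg
They hold 7, 8 and 10 CG pairs, against a median of 8 over 35116 stretches cut the same way from all RefSeq windows and of 14 (quartiles 9 and 20) over the 201 stretches of the zinc-finger genes themselves.

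On chromosome 3, 7 zinc-finger genes lie in a cluster at chr3:44431705-44737083, and its last 2 members rose. ZNF502 (ENSG00000196653.10, chr3:44712643-44723831, + strand) was counted 0, 2 and 0 times in the HAP1 libraries and 96, 90 and 235 times in those of HELLS KO, or 6.6, 6.3 and 9.65 CPM in the latter. Scaled to the summed library sizes, the counts differed 206-fold (95% exact interval for counting error 56.6 to 1704, adjusted p = 0.00285). ZNF501 (ENSG00000186446.10, chr3:44729596-44737083, + strand), 5.8 kb further on, had 0 counts in HAP1 and 6.94, 9.66 and 13 CPM in HELLS KO, at least 45.2-fold higher (adjusted p = 0.00299). Neither gene carries a KRAB pattern. The other 5 genes of the cluster were expressed in HAP1 and did not rise: ZNF445, ZNF852 and ZNF197 had log2 fold changes of 0.02, 0.16 and 0.07. ZNF660 was at 8.79, 11.6 and 14.8 CPM in HAP1 and 4.67, 8.4 and 6.9 in HELLS KO, and ZNF35 at 3.16, 3.13 and 4.46 and 2.06, 1.75 and 3.0 CPM. In both, all HELLS KO libraries lay below all HAP1 libraries, but the differences of -0.82 and -0.65 on the log2 scale did not pass the test (adjusted p = 0.50 and 0.967). With the replicate block ZNF660 had an edgeR adjusted p of 0.0462, but its log2 fold change of -0.83 stayed short of the cut-off of 1. Beyond the cluster, KIAA1143 lies 0.6 kb from ZNF501 on the opposite strand and had a log2 fold change of 0.02 with 1327 to 3101 counts per HAP1 library.

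The stretches before these 2 neighbouring starts, cut as above, lie at chr3:44712410-44712609 for ZNF502 and chr3:44729385-44729584 for ZNF501, both on the + strand.
ZNF502: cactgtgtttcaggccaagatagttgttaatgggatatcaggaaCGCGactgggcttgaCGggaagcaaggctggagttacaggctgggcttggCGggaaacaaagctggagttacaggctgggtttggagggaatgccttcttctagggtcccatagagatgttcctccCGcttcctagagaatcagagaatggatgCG
ZNF501: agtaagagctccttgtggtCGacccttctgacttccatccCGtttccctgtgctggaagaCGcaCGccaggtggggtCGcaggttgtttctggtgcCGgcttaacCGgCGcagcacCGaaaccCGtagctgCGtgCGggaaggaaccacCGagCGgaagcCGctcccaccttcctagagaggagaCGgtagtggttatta
The first holds 6 CG pairs and the second 16, and 56.3% and 29.9% of all stretches hold as many or more. In the whole windows the numbers are 14 and 27.

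On chromosome 5, a cluster of 5 zinc-finger genes at chr5:178711512-179083977 was split in the same manner. ZNF879 (ENSG00000234284.5, chr5:179023804-179035064, + strand), a KRAB gene, had 0 counts in HAP1 and 4.88, 4.55 and 6.78 CPM in HELLS KO, at least 24.8-fold higher (adjusted p = 0.00358). ZNF354C (ENSG00000177932.6, chr5:179060373-179083977, + strand), a KRAB gene known as a transcriptional repressor, had 0 counts in HAP1 and 2.68, 7.0 and 13.6 CPM in HELLS KO, at least 35.6-fold higher (adjusted p = 0.0247). Its HELLS KO libraries were spread more widely than those of ZNF879, and without HELLS KO replicate 2 its adjusted p was 0.119. The bound of 35.6 is for the mean and does not cover that spread. ZNF454, on the other side of ZNF879, showed 2, 2 and 0 counts in the HAP1 libraries against 14, 14 and 48 in the knockout. Its groups did not overlap, its adjusted p was 0.0676, and it passed with the replicate block (adjusted p = 0.0271). The other 2 genes, ZNF354A and ZNF354B, are close relatives of ZNF354C that were expressed in HAP1. ZNF354A was at 18.1, 17.2 and 23 CPM in HAP1 and 13.5, 15.8 and 17.1 in HELLS KO (-0.33 on the log2 scale, adjusted p = 1.00), and ZNF354B had a log2 fold change of 0.03. Reads of these 2 may be divided between them, since 25.8% of the 31-base stretches of ZNF354A occur in ZNF354B. Among the tested genes within the cluster without a ZNF symbol, the pseudogene AACSP1 was higher in HELLS KO (log2 fold change 2.28, adjusted p = 0.0443), and ZFP2 had -0.19.

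The stretches before the 2 genes that rose and before the expressed relative ZNF354A are given for comparison, at chr5:179023554-179023753 (+), chr5:179060123-179060322 (+) and chr5:178730710-178730909 (-).
ZNF879: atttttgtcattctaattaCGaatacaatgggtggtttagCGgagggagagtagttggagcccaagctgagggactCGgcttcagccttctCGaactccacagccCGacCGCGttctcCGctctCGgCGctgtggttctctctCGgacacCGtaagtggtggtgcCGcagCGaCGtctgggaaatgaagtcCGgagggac
ZNF354C: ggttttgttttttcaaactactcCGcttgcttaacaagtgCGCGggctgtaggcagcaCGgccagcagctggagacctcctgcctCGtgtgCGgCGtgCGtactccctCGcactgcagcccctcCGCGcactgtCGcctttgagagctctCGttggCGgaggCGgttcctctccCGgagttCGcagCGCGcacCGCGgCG
ZNF354A: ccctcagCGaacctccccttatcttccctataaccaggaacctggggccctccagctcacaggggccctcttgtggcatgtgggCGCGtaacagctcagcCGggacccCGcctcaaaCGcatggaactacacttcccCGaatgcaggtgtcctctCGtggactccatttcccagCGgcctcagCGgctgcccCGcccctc
They hold 16, 22 and 11 CG pairs. In the whole RefSeq windows, which run from 250 bases before to 50 after the start, the numbers are 30, 33 and 30, so the expressed ZNF354A has as many there as ZNF879.

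On chromosome 4, a cluster of 6 genes at the end of the short arm, chr4:53286-499156, held 2 KRAB genes that rose. ZNF141 (ENSG00000131127.12, chr4:337814-384868, + strand) was at 0.281, 0.291 and 1.92 CPM in HAP1 and at 12.4, 18.8 and 38.5 CPM in HELLS KO (log2 fold change 4.66, SE 0.77, adjusted p = 0.0237). ZNF732 (ENSG00000186777.10, chr4:270675-305474, - strand) was at 0.0703, 0.218 and 0.375 and 1.92, 2.73 and 7.43 CPM (log2 fold change 4.06, SE 0.73, adjusted p = 0.0353). In both genes the groups did not overlap, and replicate 3, the labelled batch, was the highest library of each genotype. They lie 32.3 kb apart on opposite strands, and the other tested members had small values: ZNF595 0.60, ZNF721 0.08, ZNF718 0.00 and ZNF876P -0.37 on the log2 scale, none of them called. ZNF595 came nearest, at 16.2, 14 and 19.1 CPM in HAP1 and 18.2, 23.9 and 32.6 in HELLS KO, with groups that overlapped (adjusted p = 0.707). ZNF732 shared 17.2% of its 31-base stretches with other genes, 7.87% with ZNF721, and ZNF141 shared 12.3%.

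**Figure D2:**
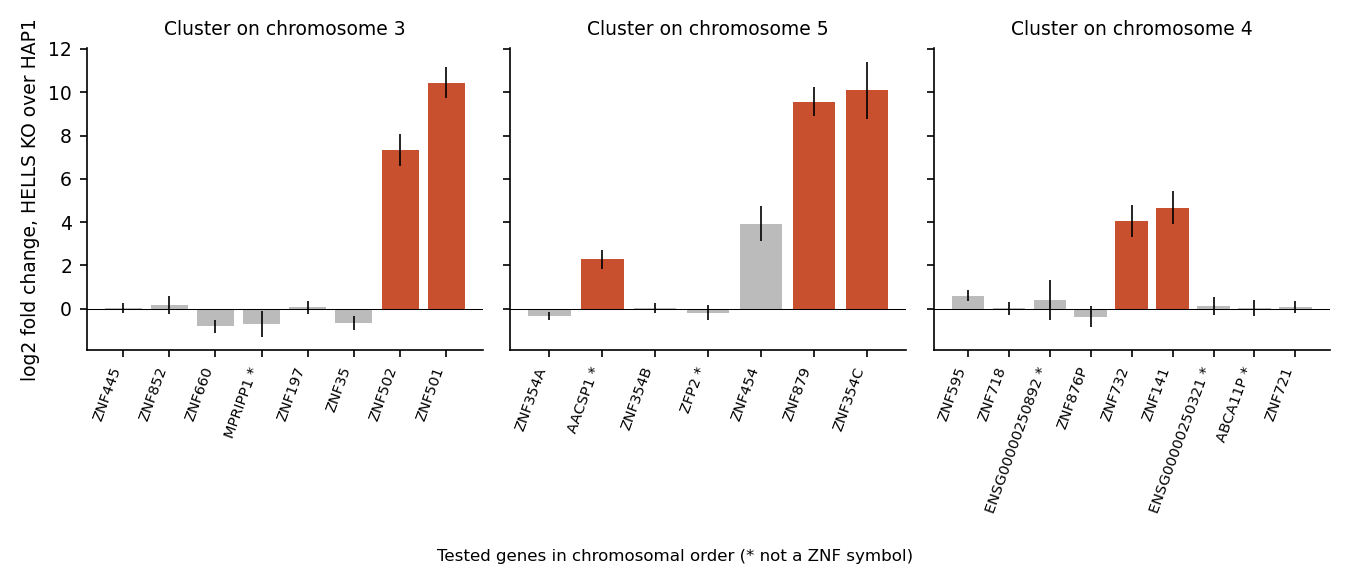
Bars give the log2 fold change, HELLS KO over HAP1, of the tested genes in chromosomal order in the clusters on chromosomes 3, 5 and 4, with lines of 1 SE either way, and an asterisk marks genes without a ZNF symbol of the kind chosen. Red bars were called higher. The bars of ZNF501, ZNF879 and ZNF354C, with 0 counts in all HAP1 libraries, are fitted values that depend on the prior count. They have no measured size beyond the lower bounds of 45.2, 24.8 and 35.6 for the HELLS KO means.

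The remaining higher genes were ZNF334 and ZNF204P. ZNF334, a KRAB gene on chromosome 20 (ENSG00000198185.10, chr20:46499630-46513559, - strand), was at 0, 0.727 and 0.542 CPM in HAP1 and 6.94, 6.72 and 12.8 in HELLS KO (log2 fold change 4.33, SE 0.73, adjusted p = 0.0252). No library of either genotype overlapped the other, and the neighbours ELMO2 and ENSG00000273893 had values of 0.08 and 0.26. The pseudogene ZNF204P on chromosome 6 (ENSG00000204789.4, chr6:27358252-27359854, - strand) was counted 0, 2 and 0 times in the HAP1 libraries and 72, 58 and 146 times in the knockout, a ratio of 135 (95% exact interval for counting error 37 to 1119, adjusted p = 0.00511). All of its sequence (100% of 31-base stretches) is also annotated to the long non-coding RNA ENSG00000291112 on the same strand, so the reads belong to that locus and may not be those of the pseudogene alone.

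The 2 genes that fell are built unlike those that rose. ZNF385D on chromosome 3 (ENSG00000151789.8, chr3:21412218-22373321, - strand) went from 6.89, 5.53 and 5.0 CPM in HAP1 to 0, 0.28 and 0.0821 in HELLS KO, or from 98, 76 and 120 counts to 0, 4 and 2 (log2 fold change -5.57, SE 0.64, adjusted p = 0.0060). It was thereby the lowest of the 254 genes per length in HELLS KO. With so few HELLS KO counts its fitted fold change was unsteady, at -6.67 without HELLS KO replicate 2 and -5.10 without HELLS KO replicate 1. ZNF804A on chromosome 2 (ENSG00000170396.7, chr2:184598529-184939492, + strand), a gene known for its association with psychiatric disease, went from 6.82, 6.62 and 7.13 to 0.825, 0.98 and 1.64 CPM (log2 fold change -2.54, SE 0.32, adjusted p = 0.00844). The HAP1 libraries of both genes lay close together, and the groups did not overlap. ZNF385D codes for 3 C2H2 fingers and ZNF804A for 1, and neither holds a KRAB pattern. Of the relatives of ZNF385D, ZNF385C was at 6.96, 6.62 and 2.46 CPM in HAP1 and 2.82, 1.96 and 1.31 in HELLS KO, with groups that overlapped. It passed with the replicate block (log2 fold change -1.32, adjusted p = 0.0271) but not without it (-1.40, adjusted p = 0.438). ZNF385A, a cofactor of p53, had -0.66 and ZNF385B 0.09 on the log2 scale, and neither passed (adjusted p = 1.00 and 1.00).

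Each library was left out in turn. In all 6 fits 8 of the 13 genes were called: ZNF300, ZNF883, ZNF239, ZNF502, ZNF501, ZNF879, ZNF204P and ZNF385D. For 6 of these, all but ZNF300 and ZNF385D, no HAP1 library had more than 2 counts, so that they pass the filter only through HELLS KO and their repeated calls are no sign of stability. ZNF300 was low in HAP1 and ZNF385D in HELLS KO, so both pass the filter through the other genotype. Their repeated calls are no sign of stability either. ZNF804A and ZNF354C were lost only without HELLS KO replicate 2 (adjusted p = 0.0637 and 0.119). ZNF334 was lost without replicate 2 of HAP1 (0.0528) and without replicate 1, 2 or 3 of HELLS KO (0.0836, 0.105 and 0.0588). ZNF141 was lost without replicate 1 or 2 of HAP1 (0.0752 and 0.0603) or of HELLS KO (0.0539 and 0.0974). ZNF732 was lost in all these fits except that without HAP1 replicate 3, with adjusted p-values of 0.0536 to 0.117. Without HELLS KO replicate 2 the number of higher genes was 7 in place of 11, while that over all tested genes went from 269 to 112. Within replicates 1 and 2, outside the labelled batch, 9 of the 11 higher and both lower genes were called, and ZNF354C and ZNF334 narrowly missed (adjusted p = 0.0554 and 0.0534). The batch itself holds 1 library of each genotype and gives no test of its own.

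By chromosome, the genes called without the replicate block lay on 8 of the 20. Chromosome 5 had 3 higher among 10 tested genes, chromosome 3 had 2 higher and 1 lower among 17, and chromosome 4 had 2 higher among 9. Chromosomes 6, 9, 10 and 20 had 1 higher gene each, among 9, 13, 16 and 8, and chromosome 2 had 1 lower among 9. The other 12 chromosomes held 156 tested genes with none called by edgeR in that fit, 5 of them at an unadjusted p under 0.05 and 2 called by DESeq2. With the replicate block edgeR called 3 of the 156, ZNF704 on chromosome 8, ZNF469 on chromosome 16 and ZNF385C on chromosome 17. Among them were chromosomes 7 and 16 with 30 tested genes each, chromosome 1 with 18 and chromosome 8 with 16. Over the 15 chromosomes with at least 9 tested genes, the medians ran from -0.03 to 0.23 on the log2 scale, and those of all other genes on the same chromosomes from -0.01 to 0.03. Some medians of zinc-finger genes left their range of -0.03 to 0.23 with 1 library fewer. Without HAP1 replicate 3 that of chromosome 6 was 0.43, while that of chromosome 9 was 0.22 and stayed inside. Without HELLS KO replicate 3 those of chromosomes 6 and 9 were -0.10 and -0.20.

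Calls among zinc-finger genes are set beside those among the other genes of their chromosomes. On chromosome X, 7.79% of 693 other tested genes were called higher in HELLS KO, while none of its 11 zinc-finger genes was called by edgeR (0 at an unadjusted p under 0.05 and 0 by DESeq2), with log2 fold changes between -0.59 and 0.09. On chromosome 20, ZNF334 was called and 0 of the 439 other tested genes were by edgeR (20 at an unadjusted p under 0.05, 4 by DESeq2 and 4 with the replicate block). On chromosome 18, 4.23% of 260 other genes were higher and 0 of 9 zinc-finger genes (1 at an unadjusted p under 0.05 and 0 by DESeq2). None of these differences between gene groups was tested, and so few zinc-finger genes per chromosome cannot show one. For comparison, 35 of 240 tested zinc-finger genes on chromosome 19 (14.6%) were called higher, with a median log2 fold change of 0.14.

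**Figure D3:**
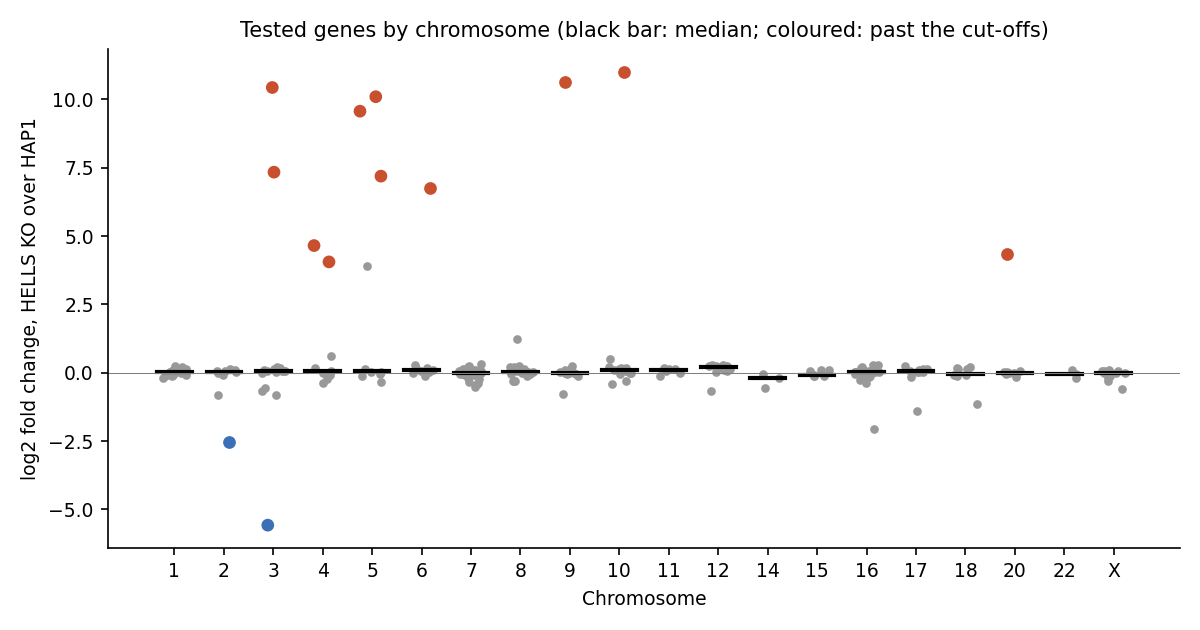
Each point is 1 of the 247 tested genes, placed by chromosome, with its log2 fold change (HELLS KO over HAP1) and a black bar at the median of each chromosome. The 11 red points (higher) lie on chromosomes 3, 4, 5, 6, 9, 10 and 20 and the 2 blue points (lower) on 2 and 3, while nearly all others lie close to 0. Values above 9 belong to genes with 0 counts in all HAP1 libraries and have no measured size.

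Chromosome 12 had the highest median, 0.23 over 12 genes, and this came from a cluster at the end of its long arm. All 7 genes at chr12:132918306-133214832 (ZNF605, ZNF26, ZNF84, ZNF140, ZNF891, ZNF10 and ZNF268) had values above 0, between 0.14 and 0.30 on the log2 scale. ZNF84 was at 58.6, 59.3 and 88.1 CPM in HAP1 and 64.7, 82.3 and 95.2 in HELLS KO, and ZNF10, an early described KRAB gene, at 12.7, 12.4 and 26.7 and 17.8, 18.8 and 27.4. In both genes the groups overlapped, with replicate 3 the highest of either genotype. None of the 7 was called by edgeR (0 at an unadjusted p under 0.05 and 0 by DESeq2), and the chromosome's median ranged from 0.01 to 0.47 when each library was left out. ZNF140 and ZNF891 overlap on opposite strands, and 43.0% of the 31-base stretches of ZNF140 occur in ZNF891 on either strand. Since the strand setting of the counting is not given, their reads may not have been told apart.

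Where neighbouring starts within 500 kb were joined, 122 of the 254 genes fell into 24 clusters of at least 3. Called genes lay in 6 of these clusters, 9 of them in all, and 18 clusters had none. Apart from the clusters described above, ZNF239 was the 1 called gene among 4 at chr10:43436841-43648881, ZNF204P among 3 at chr6:27358252-27473118 and ZNF334 among 2 tested at chr20:45948660-46513559. ZNF300, ZNF883, ZNF385D and ZNF804A lay outside clusters. The largest cluster without a called gene was that of 13 genes at chr16:30378106-31917357, with values from -0.20 to 0.23, followed by 11 genes at chr7:149069641-149867479, with values from -0.53 to 0.26. The nearest tested genes on either side of the 13 called genes came to 26, of which 6 were themselves among the 13. Of the other 20, 2 were higher (ZNF300P1 and ZFP37), the others were not called, and their median log2 fold change was 0.07.

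Genes that were not called but whose libraries did not overlap are given with their values. ZNF469 on chromosome 16, the gene of brittle cornea syndrome, was at 3.24, 3.35 and 3.75 CPM in the parental libraries and 1.1, 1.12 and 0.329 in the knockout. The log2 fold change, -2.06, had an adjusted p of 0.106, and with the replicate block it passed as lower (adjusted p = 0.0271). ZNF704 on chromosome 8 was at 9.49, 7.13 and 10.05 CPM in HAP1 and 14.8, 22.5 and 25.3 in HELLS KO (1.23 on the log2 scale, adjusted p = 0.0681), and with the block it passed as higher (adjusted p = 0.0105). ZNF532 on chromosome 18 was at 4.64, 4.66 and 6.13 and 1.51, 1.4 and 3.9 CPM (-1.15, adjusted p = 0.567). ZNF532 was not called with the block (adjusted p = 0.0567) but was with the batch term and within replicates 1 and 2 (adjusted p = 0.0397 and 0.0372). In each of these 3 genes the libraries of the genotypes did not overlap. ZNF514 (-0.82), ZNF157 (-0.59), ZNF862 (-0.53), ZNF488 (-0.39) and ZNF34 (-0.29) also lay lower in every HELLS KO library, and ZNF783 (0.26) higher, at adjusted p-values from 0.288 to 1.00. For ZNF514 the edgeR adjusted p was 0.0059 with the block, 0.0024 with the batch term and 0.041 within replicates 1 and 2. Its log2 fold change was -0.81 in each of these fits, short of the cut-off of 1. Of the 7 genes that did not pass the filter, with 31 to 60 counts each, ZNF662 had 0 counts in every parental library and 11, 10 and 26 in the knockout, at least 3.86-fold higher, and it was called where no filter was applied. The others, ZNF593, ZNF474, ZNF602P, ZNF603P, ZNF750 and ZNF663P, were not tested in the main fit and were not called where no filter was applied.

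Expression levels were compared between genes per length, in the deposited FPKM. The median over the 254 genes was 7.15 FPKM in HAP1 and 7.13 in HELLS KO, and the number at 1 FPKM or more was 216 and 223. At 10 FPKM or more there were 95 and 98. The 5 highest genes were ZNF622 (a factor of ribosome assembly) at 42.4 ± 4.95 FPKM (SD, n = 3) for HAP1 and 41.3 ± 4.93 for HELLS KO, ZNF768 at 39.8 ± 8.16 and 40.2 ± 9.77, ZNF598 (a ubiquitin ligase of stalled ribosomes) at 33.9 ± 7.52 and 32.9 ± 6.64, ZNF664 at 32.4 ± 1.14 and 33 ± 3.78, and ZNF711 (a transcription factor of X-linked intellectual disability) at 33.7 ± 1.46 and 31.2 ± 5.08. Their log2 fold changes lay between -0.11 and 0.03, their groups overlapped, and neighbours in this order did not differ beyond their spread. The 11 genes that rose reached lower levels: ZNF300 came to rank 63 in HELLS KO, ZNF239 to 150 at 5.74 ± 2.09 FPKM, ZNF883 to 168 at 4.6 ± 1.27, ZNF141 to 176 at 3.99 ± 2.35, and the other 7 to between 192 and 217. In HAP1 all 11 had ranked between 239 and 249.

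**Figure D4:**
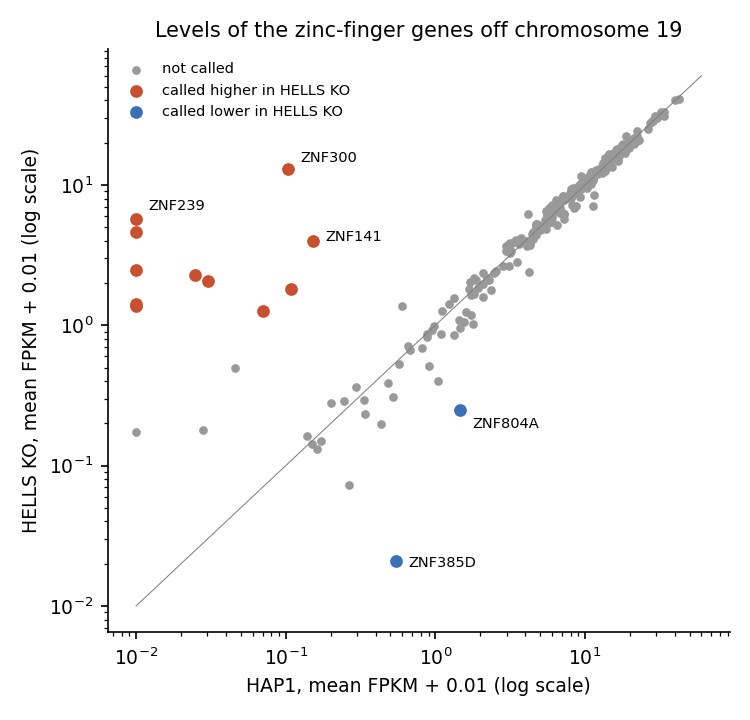
Each point is 1 of the 254 genes by its mean FPKM plus 0.01 in HAP1 (horizontal) and HELLS KO (vertical), both on log axes, with a line of equal level. Most genes lie along the line up to 42.4 and 41.3 FPKM, the 11 red genes lie at the left above it, and ZNF804A and ZNF385D lie below it.

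Sequence features that played no part in the choice of the genes were also described. A canonical coding sequence was available for all 242 protein-coding genes, and 105 of these held a KRAB pattern. The pattern was found in 6 of the 10 coding genes that rose (ZNF300, ZNF879, ZNF354C, ZNF141, ZNF732 and ZNF334), in 0 of the 2 that fell, and in 99 of 226 genes not called (43.8%). The median log2 fold change was 0.06 over 105 genes with the pattern and 0.03 over 133 without it. The genes that rose coded for 9 to 14 fingers with a median of 11.5, and those not called for 0 to 40 with a median of 9. With so few called genes, these shares are a description only. Of the called genes, 12 of 13 shared under 20% of their 31-base stretches with another gene, as did 199 of all 254, the exception being ZNF204P.

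RefSeq promoter windows of 300 bases, from 250 before to 50 after the start, were matched by symbol and chromosome for 201 of the 254 genes, 9 of them higher and 2 lower. The median number of CG pairs per window was 21 in those that rose, 25 in those not called and 14 over all 35116 windows. Divided by the number expected from the C and G content of each window, the medians were 0.91, 0.83 and 0.58. An ETS core motif, CCGGAAG on either strand, was present in 73 of the 201 windows (36.3%) and in 10.3% of all windows. It was found in 4 of the 9 windows of higher genes (ZNF141, ZNF239, ZNF334 and ZNF502). A YY1 motif, AAGATGGC on either strand, occurred in 2.99% of the 201 windows and 2.89% of all, with ZNF300 among them. A match here is a run of letters within the window and was not tested as a binding site.

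The genes of the proteins through which KRAB zinc-finger proteins act had no called change. Of a list of 26 co-repressors and chromatin factors, all were tested and none was called by edgeR (0 at an unadjusted p under 0.05 and 0 by DESeq2), with log2 fold changes from -0.11 to 0.13. TRIM28, the KRAB-binding scaffold, was at 338, 346 and 232 CPM in HAP1 and at 335, 336 and 229 CPM in HELLS KO (log2 fold change -0.02, SE 0.21). SETDB1, the H3K9 methyltransferase recruited by it, was at 89.9, 79.9 and 97.5 CPM in HAP1 and at 70.7, 93.3 and 95.2 CPM in HELLS KO (log2 fold change -0.04, SE 0.16). In both, the libraries of the genotypes overlapped, and replicate 3 stood apart from the other replicates more than the genotypes did for TRIM28.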

How the data were processed

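RNA-seq of 3 HAP1 and 3 HELLS KO libraries was analysed. The authors made directional libraries from total RNA, sequenced read pairs, aligned them with STAR 2.7.3a to GRCh38, removed duplicates and alignments below a mapping quality of 20, and counted reads per gene with featureCounts 2.0.6. They deposited raw counts per gene and FPKM, which the authors derived per gene length. The annotation release and the strand setting of the counting are not given in the sources used here, so reads of overlapping genes on opposite strands may not have been told apart.

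Gene identifiers were matched without version to GENCODE release 44 (56321 of 60483), which supplied symbols, coordinates and coding sequences. The members and lists were chosen with earlier results of these data known. The main fit used the quasi-likelihood test of edgeR 4.0.16 (R 4.3.3) without a block, after filterByExpr and TMM, with Benjamini-Hochberg adjustment over 17925 genes. Calls required 0.05 on the adjusted p and a log2 fold change of 1 or more in size. CPM values used TMM library sizes. Depth was 13641237 to 24400187 counts per library. Libraries of 1 genotype were checked for copies, and the smallest chi-square per gene between any of them was 2.34. The common biological coefficient of variation was 0.242. Steps were tested on simulated data.

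Pairing was checked by the correlation of deviations from the genotype mean between same-numbered libraries, which was 0.47, 0.22 and 0.81 for replicates 1, 2 and 3. All were above 0.1, and the numbers were treated as pairs in the fit with a replicate block. That fit is given beside a result where it changes the call. Crosswise, the correlation was 0.66 between replicate 2 of HAP1 and replicate 1 of HELLS KO. Between replicate 1 of HAP1 and replicate 2 of HELLS KO it was 0.37. The batch-labelled replicate 3 stood apart in both genotypes, so deviations of replicates 1 and 2 tend to correlate whichever way they are paired. For these 2 numbers the check cannot decide the pairing, and the block rests on the numbering alone.

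Fingers were counted in translated GENCODE coding sequences by a C2H2 pattern and KRAB by a pattern in the first 400 codons, in place of a protein table. Sharing was the percentage of 31-base stretches of a gene's transcripts found in another gene on either strand, so it includes overlap of genes on opposite strands. Named genes were those called, HELLS, the non-overlapping genes of largest fold change with a mean of at least 1 CPM up to 25 in all, the 5 of highest FPKM and those nearest to the limit of 30 counts. ZNF454, ZNF662, ZNF385A, ZNF385B, ZNF385C, the other genes of the 4 clusters described and the flanking genes were named after their values were seen. Alternatives were upper-quartile normalization, DESeq2 1.42.0, no filter, at least 10 counts in every library, the block, a batch term, replicates 1 and 2 only, each library left out in turn, and limma 3.58.1 on log2(FPKM + 1) and log2(FPKM + 0.1), a scale that understates changes of low genes.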

Additional observations from a re-analysis of the deposited data

How the results depend on the processing

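The number of zinc-finger genes called higher was 11 as reported. It was 0 where at least 10 counts were required in every library, a filter that removes all 11 from the test, 7 to 12 when each library was left out, and 8 to 14 otherwise. The number called lower, 2 as reported, was 1 with at least 10 counts in every library, 4 with the replicate block, 5 with the batch term, 4 with replicates 1 and 2 only, 0 with limma on log2(FPKM + 1), and 1 to 2 when each library was left out. In that limma fit the 2 lower genes had adjusted p-values of 0.0154 and 0.0209 but fold changes of -0.60 and -0.98 on its compressed scale.

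Over all tested genes, the 269 higher calls became 415 with no filter, 29 with at least 10 counts in every library, 146 with limma on log2(FPKM + 1) and 112 to 273 with each library left out. The 129 lower calls became 232 with DESeq2, 200 with no filter, 48 with at least 10 counts in every library, 267 with the replicate block, 285 with the batch term, 219 with replicates 1 and 2 only, 52 with limma on log2(FPKM + 1), and 40 to 176 with each library left out. Except for the filters, the cause was not tested.

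The median log2 fold change of the zinc-finger genes, 0.03, ranged from -0.037 to 0.15 with a library left out, the highest value without HAP1 replicate 3, and its sign is therefore not stable. The 5 genes of highest FPKM changed sign near 0 when a library was left out: ZNF622 ranged from -0.13 to 0.049, ZNF768 from -0.13 to 0.21, ZNF598 from -0.20 to 0.12, ZNF664 from -0.054 to 0.11 and ZNF711 from -0.19 to 0.017. No called gene changed direction. The replicate block changed no call among the named genes other than those of ZNF454, ZNF704, ZNF469, ZNF385C and the marker GATA3. Depth limits the size of changes from 0 counts, which are given as lower bounds for the HELLS KO mean.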
